A study of Arabidopsis thaliana with 4 samples.

Results

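Genes of 3 late embryogenesis abundant (LEA) proteins, AT3G02480, LEA4-5 and AT3G17520, gave at least 4-fold lower signals on the array 35S:miR396 1 than on the other 3 arrays of the study. A probe set with no gene in the annotation used here, called the unnamed probe set below, did so too. On that array AT3G02480 stood at 1.72% of its signal on the wild-type array numbered 1b. The unnamed probe set stood at 8.43%, LEA4-5 at 12.4% and AT3G17520 at 19.2%. For AT3G17520 the lowest signal elsewhere was on 35S:miR396 2, and the gap to it was only 4.07-fold. These 4 probe sets of the 22746 measured were selected on their signals, by the drop on that array and by the pattern across genotypes and replicate numbers. Their differences between arrays are therefore given as a description, without a test.

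LEA proteins are small, very hydrophilic proteins that stay largely unfolded in water. They accumulate late in seed maturation, when the embryo acquires tolerance of drying. In vegetative tissue many of their genes are switched on by abscisic acid, drought, salt or cold. LEA4-5 (AT5G06760) encodes such a protein that accumulates under water deficit and protects enzymes from inactivation in the test tube. AT3G02480 and AT3G17520 carry no other symbol in the gene table. The unnamed probe set is described by its signals alone.

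Seedlings of Arabidopsis thaliana (ecotype Col-0) were grown for 10 days on Murashige-Skoog salts in long days at 23 °C, and RNA was taken from the seedlings. The study has 2 arrays of wild type, numbered 1b and 2, and 2 arrays of 35S:miR396, numbered 1 and 2. The 35S:miR396 plants overexpress the microRNA miR396 under the viral 35S promoter, which drives expression in most tissues of the plant and not in 1 cell type. The plant line, the number of plants pooled for an array and the meaning of the letter in 1b are not given in the sources used here. Wild type 1b and 35S:miR396 1 are called the number 1 arrays below, and wild type 2 and 35S:miR396 2 the number 2 arrays. Nothing in the labels says that a number marks a shared culture, day or batch, or that replicates came from separate plants.

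The array 35S:miR396 1 was also the dimmest of the 4. Its median signal over all probe sets was 60.5, against 71.3 to 81.3 on the other 3. The median log2 ratio between the genotypes, 35S:miR396 over wild type, over the 15923 probe sets kept by a filter on low signals was -0.25 in number 1 and 0.17 in number 2. The same medians were 0.01 and -0.02 after each array had been centred on its own median signal, and such centred values are given where stated. Of 7 genes listed as marks of seedling tissue, 5 were measured. The dim array was the lowest for 3 of them, as for 59.0% of the kept probe sets, though by small gaps. The widest was that of PSBW, a photosystem gene, at 6546 there and at 7355 to 8336 elsewhere, 1.12-fold under the lowest other array. PYK10, a beta-glucosidase of roots and hypocotyls, was at 1197 on 35S:miR396 1 and at 1195 to 1497 on the other 3. LHCB4.1, of the light-harvesting antenna, was at 11775 there and at 13121 to 13507 elsewhere. The number of arrays limits the precision of all values.

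AT3G02480 had signals of 1184 and 1994 on wild type 1b and 2, and of 20.4 and 1410 on 35S:miR396 1 and 2. A single array was low, and 35S:miR396 2 lay between the wild-type arrays, so the genotypes overlapped. The mean signal was 1589 ± 573 (SD, n = 2) for the wild type and 715 ± 983 (SD, n = 2) for 35S:miR396, where the spread exceeded the mean. In number 1 the wild-type signal was 58.0 times that of 35S:miR396, and in number 2 it was 1.41 times. After centring, these log2 ratios, 35S:miR396 over wild type, were -5.59 and -0.69.

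The unnamed probe set had signals of 466 and 1492 on wild type 1b and 2, and of 39.3 and 704.8 on 35S:miR396 1 and 2. It ran in the same order as AT3G02480, with 35S:miR396 1 lowest and wild type 2 highest, and the genotypes overlapped. Its mean was 979 ± 725 (SD, n = 2) for the wild type and 372 ± 471 (SD, n = 2) for 35S:miR396. The wild-type signal was 11.9 times that of 35S:miR396 in number 1 and 2.12 times in number 2. Unlike AT3G02480, this probe set was thus more than 2-fold lower in 35S:miR396 in both numbers, with centred log2 ratios of -3.30 and -1.27.

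LEA4-5 was dimmer throughout, at 50.2 and 116.6 on wild type 1b and 2 and at 6.2 and 77.4 on 35S:miR396 1 and 2. The order of the arrays was again that of AT3G02480, and 35S:miR396 2 again lay between the wild-type arrays. The mean was 83.4 ± 47.0 (SD, n = 2) for the wild type and 41.8 ± 50.3 (SD, n = 2) for 35S:miR396. The wild-type signal was 8.10 times that of 35S:miR396 in number 1 and 1.51 times in number 2, with centred log2 ratios of -2.75 and -0.78. The signal of 6.2 lay under 11.5, the lower quartile of all signals on that array, a range in which a MAS5 signal is imprecise on the log scale.

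AT3G17520 stood at 36.9 and 79.0 on wild type 1b and 2 and at 7.1 and 28.9 on 35S:miR396 1 and 2. It differed from the other 3 in that both 35S:miR396 arrays lay below both wild-type arrays, as they did for 8.10% of the kept probe sets. Its mean was 58.0 ± 29.8 (SD, n = 2) for the wild type and 18.0 ± 15.4 (SD, n = 2) for 35S:miR396. The wild-type signal was 5.20 times that of 35S:miR396 in number 1 and 2.73 times in number 2, with centred log2 ratios of -2.11 and -1.64. A description as low on 35S:miR396 1 alone is therefore incomplete for AT3G17520. Its signal of 7.1 also lay under the lower quartile of that array. In whole-seedling RNA, fewer cells that express a gene and less of its RNA per cell cannot be told apart for any of these genes.

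**Figure D1:**
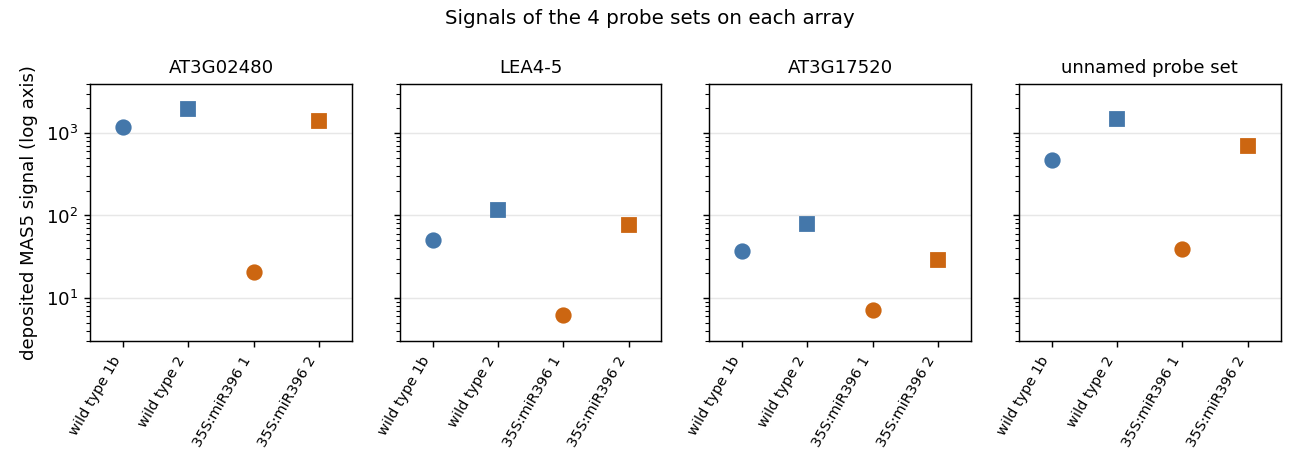
Deposited MAS5 signal (log axis) of AT3G02480, LEA4-5, AT3G17520 and the unnamed probe set on each of the 4 arrays, 1 point per array, with circles for number 1 and squares for number 2, blue for wild type and orange for 35S:miR396. The point of 35S:miR396 1 is the lowest in each panel, and 35S:miR396 2 lies under both wild-type points for AT3G17520 only.

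All 4 were at least 4-fold lower in 35S:miR396 than in wild type in number 1, where 0.283% of the kept probe sets were. At least 2-fold lower in number 2 were AT3G17520 and the unnamed probe set, beside 0.565% of the kept probe sets.

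How far the genotype difference rested on 35S:miR396 1 was read by leaving out each array in turn. With all 4 arrays the log2 difference of 35S:miR396 minus wild type was -3.18 for AT3G02480, -2.32 for the unnamed probe set, -1.91 for AT3G17520 and -1.80 for LEA4-5. Without 35S:miR396 1 these values became -0.12, -0.24, -0.90 and 0.02 in the same order. The sign of LEA4-5 thus turned, and AT3G17520 kept the value farthest from 0 of the 4. In that reduced comparison the median over all kept probe sets was 0.15, and with centred arrays the 4 members stood at -0.30, -0.42, -1.08 and -0.16. LEA4-5 was then again below 0. Leaving out 35S:miR396 2 had the opposite effect, with values of -6.24, -4.41, -2.93 and -3.63.

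The wild-type arrays moved these values less, though by over 1.5 times for some members. Without wild type 2 the log2 difference was -2.80 for AT3G02480, -1.49 for the unnamed probe set, -1.37 for AT3G17520 and -1.20 for LEA4-5. Without wild type 1b it was -3.56, -3.16, -2.46 and -2.41 in that order. All 8 values kept the direction.

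**Figure D2:**
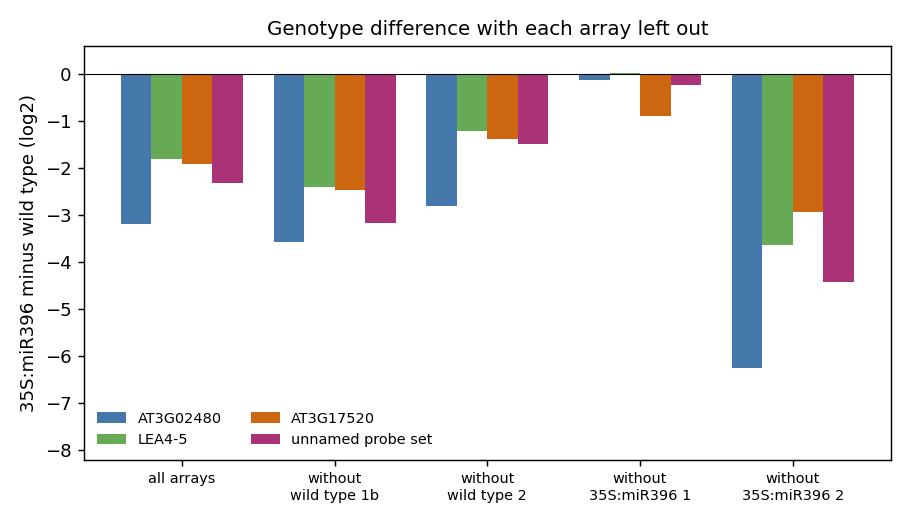
Log2 difference of 35S:miR396 minus wild type for the 4 probe sets, from all arrays and with each array left out, as bars from 0. The bars shrink to between -0.90 and 0.02 without 35S:miR396 1 and reach -6.24 without 35S:miR396 2.

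How far 35S:miR396 1 lay below the lowest of the other arrays was then set beside the same over all kept probe sets. It was the lowest of the 4 arrays for all 4 members and for 59.0% of the kept probe sets, or 22.5% after centring. AT3G02480 was 58.0-fold below the lowest of the other 3 arrays, the unnamed probe set 11.9-fold, LEA4-5 8.10-fold and AT3G17520 4.07-fold. All 4 were at least 4-fold below each other array, as were 0.207% of the kept probe sets, 33 in number. Ordered by this distance, AT3G02480 came 1st, the unnamed probe set 2nd, LEA4-5 5th and AT3G17520 31st. AT3G17520 is close to the line, since the next probe sets outside it were 3.95-fold and 3.90-fold lower. After centring, 17 probe sets (0.107%) were at least 4-fold lower on 35S:miR396 1, and AT3G17520, with a log2 distance of -1.60, was no longer among them.

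Distances of this kind were mostly found at low signals. Of the 33 probe sets, 29 had a signal under 100 on at least 1 of the other arrays, LEA4-5 and AT3G17520 among them. Of 9428 probe sets with signals of 100 or more on all other arrays, 4 (0.0424%) were at least 4-fold lower on 35S:miR396 1. AT3G02480 and the unnamed probe set are 2 of these 4. The other 2 have no single gene in the annotation and were picked out after their values were seen. The first was at 104 and 182.4 on the wild-type arrays 1b and 2 and at 17.4 and 207.5 on the 35S:miR396 arrays 1 and 2. The second was at 1482 and 3324 against 347 and 2655. Fewer such low probe sets were found on the other arrays. Their number was 14 for wild type 2, while 35S:miR396 2 had 4 of them and wild type 1b 1, and none of these had signals of 100 or more elsewhere. After centring, these 3 counts were 13, 5 and 6.

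**Figure D3:**
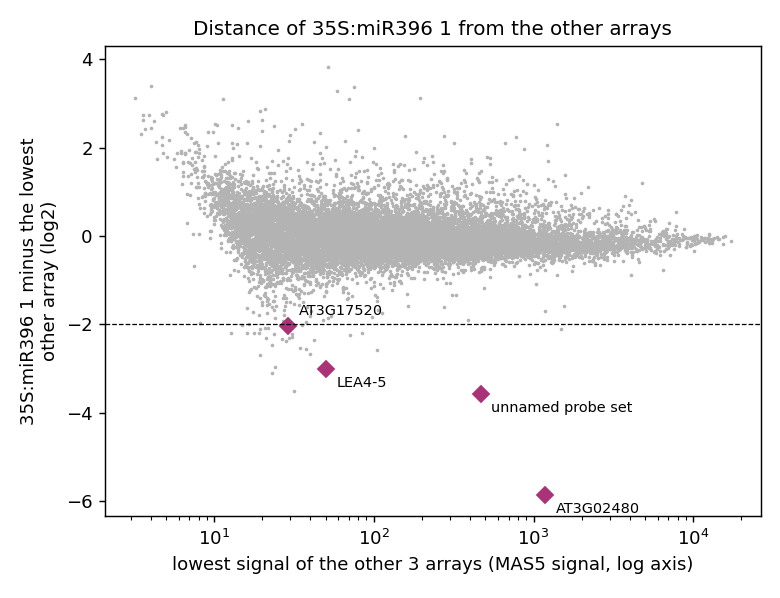
Log2 signal on 35S:miR396 1 minus that on the lowest of the other 3 arrays, against the signal of that lowest array (log axis), for the 15923 kept probe sets (grey) and the 4 described ones (diamonds). The dashed line marks a 4-fold lower signal. AT3G02480 and the unnamed probe set lie far under the line at signals above 100, while AT3G17520 lies on it.

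The 4 probe sets also differed between the replicate numbers in wild type alone, where 35S:miR396 1 plays no part. Wild type 2 exceeded wild type 1b 3.20-fold for the unnamed probe set, 2.32-fold for LEA4-5, 2.14-fold for AT3G17520 and 1.68-fold for AT3G02480. At least a 2-fold excess of wild type 2 was found for 3 of the 4 and for 3.92% of the kept probe sets. In 35S:miR396 the number 2 array exceeded the number 1 array 69.1-fold for AT3G02480, 17.9-fold for the unnamed probe set, 12.5-fold for LEA4-5 and 4.07-fold for AT3G17520. The ranking of the 4 thus differed between genotypes, since AT3G02480 had the smallest excess in wild type and the largest in 35S:miR396.

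Both number 2 arrays lay above both number 1 arrays for AT3G02480, LEA4-5 and the unnamed probe set, as for 38.0% of the kept probe sets. A 2-fold excess of number 2 in both genotypes was met by LEA4-5, AT3G17520 and the unnamed probe set, and by 2.88% of the kept probe sets. Taken over both genotypes, number 2 minus number 1 was 3.43 on the log2 scale for AT3G02480, 2.92 for the unnamed probe set, 2.43 for LEA4-5 and 1.56 for AT3G17520. Without 35S:miR396 1, the mean of both number 2 arrays minus wild type 1b was 0.50, 1.14, 0.92 and 0.37. That value also takes in part of the genotype difference in number 2. Within wild type alone, number 2 minus number 1 was 0.75, 1.68, 1.22 and 1.10 in the same order. The median over all kept probe sets was 0.16 with all arrays.

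For 3 of the 4 the arrays ran in 1 order from low to high, namely 35S:miR396 1, wild type 1b, 35S:miR396 2 and wild type 2, and 7.49% of the kept probe sets had this order. For AT3G17520 the middle arrays changed places. All 4 were lower in 35S:miR396 within both numbers, as were 18.0% of the kept probe sets on the deposited scale. The difference between the numbers in that log2 ratio, number 1 minus number 2, was -4.90 for AT3G02480, -2.03 for the unnamed probe set, -1.97 for LEA4-5 and -0.47 for AT3G17520 after centring. It rests on 1 array in each cell of the design and could not be tested.

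**Figure D4:**
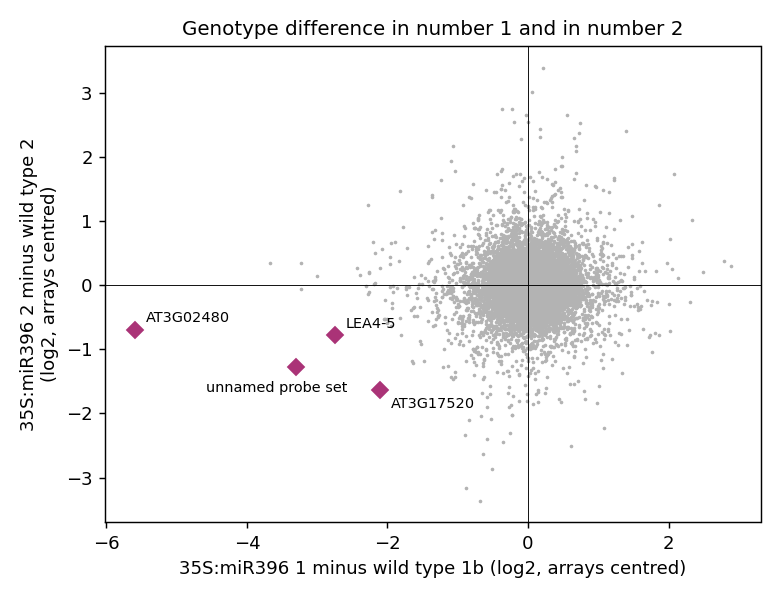
Log2 ratio between the genotypes, 35S:miR396 over wild type, in number 1 (horizontal) and in number 2 (vertical), after centring of the arrays, for the 15923 kept probe sets (grey) and the 4 described ones (diamonds). All 4 diamonds lie in the lower left, from -5.59 to -2.11 along the horizontal axis and from -1.64 to -0.69 along the vertical one.

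In the fit across all kept probe sets with limma, a linear model that borrows information on the spread from all probe sets, no probe set passed an adjusted p of 0.05 for the genotype. The called share was thus 0% of 15923. At an unadjusted p of 0.05 there were 85 probe sets (0.534%), among them all 4 described here. That contrast was used to choose them, so nothing further is read from it.

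Of the other LEA genes read here, none was 4-fold lower on 35S:miR396 1 than on each other array. After centring, AT3G17520 did not reach that line either, with a log2 distance of -1.60. A list of 53 LEA family loci had 37 with a probe set of their own, and 15 of these passed the filter on low signals, the 3 described genes among them. None of the 15 passed an adjusted p of 0.05 in the limma fit. The other 12 had a median log2 difference between the genotypes of -0.02, beside -0.04 over all kept probe sets. In number 1 their median log2 ratio was -0.23, beside -0.25 over all. On 35S:miR396 1 the signal was the lowest of the 4 arrays for 7 of the 12, where the share over all kept probe sets was 59.0%. After centring, those still lowest there were LTI30, DI21, COR15B and, by a log2 distance of -0.003, AT1G54410. The share over all kept probe sets was then 22.5%.

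Dehydrins, the LEA proteins with lysine-rich repeats that bind membranes and other cell surfaces, ranged from steady to strongly variable. LTI30, a cold-induced dehydrin, was at 276.6 and 1643 on the wild-type arrays and at 90.4 and 1206 on the 35S:miR396 arrays, in the same order of arrays as AT3G02480. Its signal on 35S:miR396 1 was 3.06-fold under the lowest other array, the widest such gap of the 12. After centring, the log2 distance was -1.35 for LTI30, beside -1.60 for AT3G17520, so the 4-fold line does not set these genes far apart. COR47, a dehydrin of cold and drought responses, was at 4194 and 3634 against 3278 and 4349. AT1G54410 was at 6920 and 7554 against 5737 and 9194. AT4G38410 stayed low, at 20.2 and 12.6 against 19.3 and 22.6.

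The cold-induced chloroplast proteins COR15A and COR15B separated the replicate numbers but not the genotypes. COR15A was at 433.6 on wild type 1b and 1783 on wild type 2, and at 378.2 and 2761 on the 35S:miR396 arrays. COR15B was at 527.6 and 1709 against 423.5 and 1698. For both, the 2 number 1 arrays lay within 1.25-fold of each other, unlike the members described here. DI21, a drought-induced gene, was at 173.9 and 298.7 on the wild-type arrays and at 109.1 and 333.3 on the 35S:miR396 arrays. LTI30, COR15A and COR15B were the 3 of the 12 with a 2-fold excess of number 2 in both genotypes, beside 2.88% of the kept probe sets. The list was chosen with earlier results of these data known.

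The remaining 5 of the 12 varied less between arrays or had low signals. AT2G23120 was at 2128 and 1610 on the wild-type arrays and 2114 and 1845 on the 35S:miR396 arrays, and AT2G44060 at 1424 and 1407 against 1257 and 1640. AT2G46140 was at 60.8 and 92.1 against 64.0 and 74.7. AT2G23110 was at 28.9 and 17.7 against 23.7 and 10.3, and AT4G13230 at 12.8 and 14.5 against 15.0 and 26.2. Of these 5, AT2G44060 was lowest on 35S:miR396 1, by 1.12-fold.

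**Figure D5:**
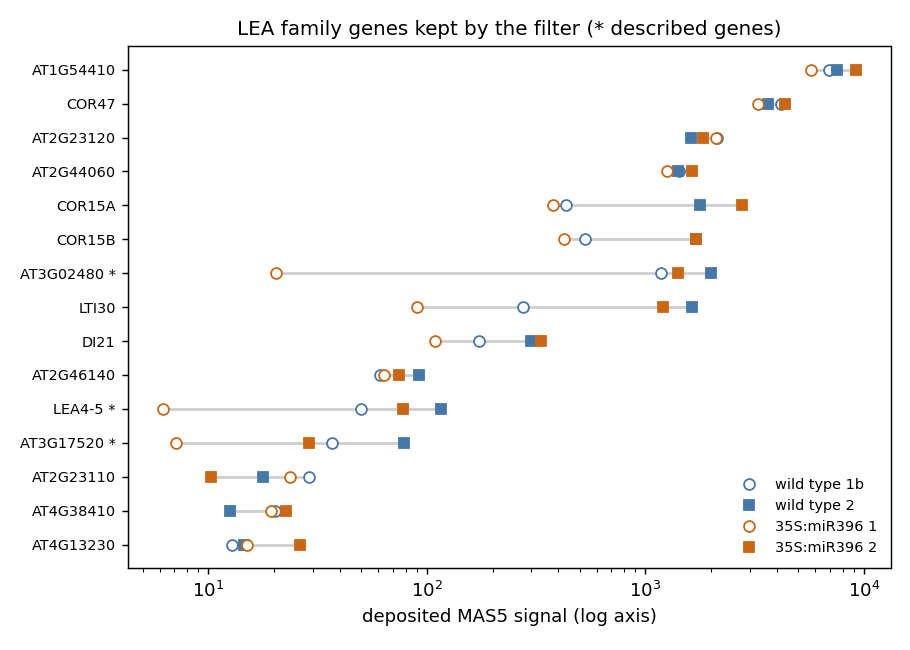
Deposited MAS5 signals (log axis) of the 15 LEA family genes kept by the filter, 1 row per gene and 1 point per array, with open circles for number 1, filled squares for number 2, blue for wild type, orange for 35S:miR396 and an asterisk for the 3 described genes. On this deposited scale, only these 3 have an open orange circle at least 4-fold under all other points of the row. After centring, AT3G17520 no longer does.

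The 22 LEA loci left out by the filter had signals between 0.2 and 17.8 on the 4 arrays. They include the closest named relatives of LEA4-5, AtLEA4-1 and LEA18, which with it form a small subgroup. AtLEA4-1 was at 12.8 and 4.9 on the wild-type arrays and 4.7 and 14.8 on the 35S:miR396 arrays, and LEA18 at 4.1 and 3.1 against 1.4 and 1.3. The seed LEA proteins M10 and M17 and the dehydrin LEA were in this range too. The others were AT1G72100, AT2G03740, AT2G03850, AT2G18340, AT2G33690, AT2G42560, AT3G15670, AT3G22490, AT3G53040, AT3G53770, AT4G21020, AT4G36600, AT4G39130, AT5G27980, AT5G38760, AT5G44310 and AT5G53820. At such signals an order of arrays cannot be read.

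Markers of seed tissue and of the abscisic acid response were few in the annotation. Of 23 seed maturation genes 4 were measured, and their summed signal was 124.5 and 36.1 on the wild-type arrays 1b and 2 and 90.8 and 84.1 on the 35S:miR396 arrays 1 and 2. That sum was not lowest on 35S:miR396 1, but only 1 of the 4 genes passed the filter on low signals. The amount of seed tissue cannot be read from such signals. PAP85, a vicilin-like storage protein, was at 92.6, 10.4, 59.7 and 41.9 in that order of arrays, and gave most of the sum on the number 1 arrays. OLEO3, of the oleosins that coat oil bodies, was at 11.4 to 16.3, AT2G18540 at 12.1 to 16.9 and AT2G28490 at 1.0 to 12.7. Of 33 genes of the abscisic acid response 1 was measured. HIS1-3, a drought-induced linker histone, was at 100.8 and 114 on the wild-type arrays and 61.0 and 358.2 on the 35S:miR396 arrays. Its signal was lowest on 35S:miR396 1, as for 59.0% of the kept probe sets. After centring it was still lowest there, by a log2 distance of -0.46, as were 22.5% of the kept probe sets. In number 2 it was higher in 35S:miR396 than in wild type, unlike the members. The part of these genes in the drop was not tested.

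The profile of the 4 members over the arrays was compared with that of every kept probe set, by the root mean square difference of log2 signals after each probe set had been set to its own mean. The members lay between 0.19 and 0.88 from their mean profile. They were chosen for a shared pattern on these arrays and that mean is their own, so the distances describe only how they vary among themselves. The closest pair was LEA4-5 and the unnamed probe set, 0.36 apart, and the farthest AT3G02480 and AT3G17520, 1.58 apart. The difference of the farthest pair lies mainly in 35S:miR396 1, on which the drop of AT3G02480 was the deeper.

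The 10 single genes nearest to that mean profile were at distances from 0.53 to 0.81 over the 4 arrays. Centring shifts every probe set on an array alike, so it cannot change these distances and is no check on them. On 35S:miR396 1, 8 of the 10 had signals under the lower quartile of 11.5, where differences on the log2 scale are imprecise, so their order among the nearest cannot be relied on. AT3G04130 was nearest, at 31.6 and 32.4 on the wild-type arrays and 2.8 and 35.7 on the 35S:miR396 arrays. Its signals on the other 3 arrays were near-equal, and that of 2.8 lay under the quartile. AT1G16850 followed, at 37.4 and 111.6 against 6.4 and 115.8. The next were AT1G16310, AT3G06160, AT5G47250, AT5G61890, AT4G17860, EXPB1, AT5G20790 and LTI30. EXPB1, of the expansins that loosen cell walls, was at 30.8 and 50.7 against 6.6 and 37.1. AT5G20790 was at 40.6 and 181 against 12.6 and 140.3.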

How the data were processed

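The deposited table holds 1 intensity per probe set and array. These are linear MAS5 signals computed by the authors, per the submitters' processing notes. MAS5 version, scaling target and detection calls are not given in the sources used here. No column was left unmapped. After 64 control probe sets were left out, 13513 of 22746 probe sets had 1 gene, 503 several and 8730 none in the platform annotation, and 13436 matched RefSeq gene names (TAIR10.1). Values at or under 0 (6) were set to 0.1 and log2 was taken. The filter dropped the lowest 30% by mean log2 signal and left 15923 probe sets, whose mean signal was 15.8 or more. The genotype test used limma 3.58.1 under R 4.3.3 (lmFit, eBayes with a trend, two-sided, Benjamini-Hochberg over all kept probe sets). The procedure was run on simulated data whose arrays varied independently of each other. Same-numbered arrays of this study deviated together, so that run does not cover this feature of the data. Other values are log2 differences of single arrays, computed with Python 3.11.15 and pandas 2.3.3.

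The members and gene lists were chosen with earlier results of these data known. Named genes are the members, the LEA family list, up to 4 genes of each other list and the 10 nearest single genes. Alternatives were quantile normalization, centring, a pseudocount of 2.4, other filters, fits without a trend or robust, arrays left out and the replicate number as a block. P-values measure the spread between these arrays, which may be technical.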

Additional observations from a re-analysis of the deposited data

How the results depend on the processing

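With all 4 arrays, the members' genotype and number differences and their distances on 35S:miR396 1 kept their direction under quantile normalization, centring and a pseudocount. Without 35S:miR396 1, centring turned LEA4-5 from 0.02 to -0.16. The count of probe sets past an adjusted p of 0.05 was 0, and 3 with the lowest 60% left out and 0 to 2 with single arrays left out. In the LEA family list the count went from 0 to 1 (AT3G02480) with the lowest 60% left out, and was 0 to 1 with single arrays left out. With the replicate number as a block, which the labels do not state to pair the arrays, 5 passed, 3 of them members. Same-numbered arrays deviated together from their group means (r = 0.63 over 15923 probe sets, which are not replicates). After seeing the data, further alternatives were added, namely the block with another scaling, the arrays left out of the number difference and the signal limit of 100. With the block, 0 passed after quantile normalization and 18 after centring, 1 of them a member. The members were chosen on this contrast, so their passing in any refit is no support for them. Without single arrays, the LEA family median was -0.41 to 0.21, turning to 0.05 without wild type 2 and to 0.21 without 35S:miR396 1. The genotype log2 difference was then -6.24 to -0.12 for AT3G02480, -3.63 to 0.02 for LEA4-5, -2.93 to -0.90 for AT3G17520 and -4.41 to -0.24 for the unnamed probe set. The number difference was 0.50 to 6.36, 0.92 to 3.94, 0.37 to 2.75 and 1.14 to 4.71 in that order. With an array left out, that number difference also takes in part of the difference between the genotypes. The cause of these changes was not tested, beyond the array left out. The planned share of promoters with a motif was not run, as no sequences were given. Signals near background limit what can be read of LEA4-5 and AT3G17520. On 35S:miR396 1, AT3G02480 (20.4) and the unnamed probe set (39.3) were also under that array's median of 60.5. Both were above that array's lower quartile of 11.5. The exact fold of their drops still depends on these 2 signals, for which no detection calls are given.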
